A study of Mus musculus with 12 samples.

Results

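Voltage-gated sodium and calcium channels were examined in the cerebellum of mice with and without Ciz1, a nuclear factor of DNA replication that also helps anchor Xist RNA to the inactive X chromosome. The 36 genes described here are the pore-forming and auxiliary subunits of these channels, chosen by name from the 22180 genes tested: 11 sodium channel genes (symbols of the Scn series ending in a or b) and 25 calcium channel genes (Cacna1, Cacna2d, Cacnb and Cacng). The rule uses gene names and no measured value, though it was set with earlier results of these data known. Other genes of these families were not analysed here.

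Total RNA of cerebellum was hybridised to 12 Affymetrix whole-transcript arrays, 1 per mouse, with 3 arrays in each of 4 groups. WT_male and WT_female are the male and female controls, and KO_male and KO_female the male and female Ciz1-/- mice, whose deficiency the series title calls germline. The controls are wild type by source name and Ciz1+/+ by the extraction protocol, but their genotype field reads Ciz1+/-. The mice were 10 months old by the protocol and 6 to 10 months by the design text; the labels used here state neither the strain nor how the allele was made. The deposited values are robust multi-array average (RMA) intensities, shown here as log2, so that a difference of 1 is a doubling. A probe set's brightness depends on its probes as well as on its RNA, so intensities are compared between arrays and not between genes.

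A sodium channel is formed by a single large alpha subunit (Scn1a to Scn11a here) that opens on depolarisation and drives the upstroke of the action potential, joined by small beta subunits that set gating and placement in the membrane. A calcium channel has an alpha1 pore with an intracellular beta subunit and an extracellular alpha2delta subunit, which carry the pore to the membrane and tune it. The pores fall into families: CaV1 (L-type), CaV2 (P/Q-, N- and R-type, which trigger transmitter release) and CaV3 (T-type, which open near rest and support burst firing). The gamma genes are a mixed family, several of which serve as transmembrane AMPA receptor regulatory proteins (TARPs) and carry glutamate receptors to the synapse. Cerebellar output depends on these genes, and mutation of Cacna1a (tottering), Cacna2d2 (ducky), Cacnb4 (lethargic), Cacng2 (stargazer) or Scn8a (motor endplate disease) gives mutant mice with ataxia or other movement defects.

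The sequence upstream of the start was available for 28 of the 36 genes, and 3 windows are printed because they show how unlike these starts are while their expression is as described further on. Each is the 250 bases before a RefSeq start in build GRCm38.p6, 5′ to 3′ on the gene's own strand, with CG pairs in capitals. Where a gene has several windows, the printed one may lie inside the gene, after another of its starts. Cacnb4, the beta subunit lost in lethargic mice, lies at chr2:52676144-52676393 on the minus strand, with 37 CG pairs and 79.6% G and C; it is the richest of 3 windows of this gene, and the poorest has 4 pairs. Scn2b, a sodium channel beta subunit, lies at chr9:45117626-45117875 on the plus strand, with 1 CG pair and 38.4% G and C. Scn11a, a sensory neuron sodium channel, lies at chr9:119825457-119825706 on the minus strand, with 3 CG pairs and 48% G and C.
Cacnb4: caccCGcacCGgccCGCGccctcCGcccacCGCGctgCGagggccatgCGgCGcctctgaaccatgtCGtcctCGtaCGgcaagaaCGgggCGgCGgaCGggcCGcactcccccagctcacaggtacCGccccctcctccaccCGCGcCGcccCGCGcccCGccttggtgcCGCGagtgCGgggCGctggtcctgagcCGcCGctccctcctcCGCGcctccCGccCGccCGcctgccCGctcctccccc
Scn2b: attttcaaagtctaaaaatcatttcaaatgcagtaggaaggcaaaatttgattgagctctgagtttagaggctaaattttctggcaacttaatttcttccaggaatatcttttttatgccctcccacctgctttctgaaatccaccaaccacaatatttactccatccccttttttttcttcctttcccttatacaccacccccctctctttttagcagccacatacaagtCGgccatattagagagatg
Scn11a: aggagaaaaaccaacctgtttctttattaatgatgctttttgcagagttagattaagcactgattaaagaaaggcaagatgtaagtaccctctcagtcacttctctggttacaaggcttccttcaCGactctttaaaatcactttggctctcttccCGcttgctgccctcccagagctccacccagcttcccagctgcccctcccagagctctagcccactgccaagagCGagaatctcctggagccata
Cacnb4 and Scn2b were both well above the array background in every sample, with windows of unlike base composition, and Scn11a was not.

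Background was set by the olfactory and vomeronasal receptors, genes of sensory neurons in the nose, whose 95th percentile over 1390 genes was 6.47. By their mean over the 12 arrays, 25 of the 36 channel genes (69.4%) lay above it, beside 59.1% of all genes. The pores above it were Scn1a, Scn2a and Scn8a among the sodium channels, Cacna1c and Cacna1d of CaV1, all 3 CaV2 genes, and Cacna1g and Cacna1i of CaV3. So were Scn2b and Scn4b, the 3 beta genes Cacnb1, Cacnb2 and Cacnb4, the alpha2delta genes Cacna2d1, Cacna2d2 and Cacna2d3, and 7 of the 8 gamma genes. The 11 not above it were Scn3a, an alpha subunit of the embryonic brain, Scn9a, Scn10a and Scn11a of sensory neurons, Scn7a, Scn3b, the retinal Cacna1f, the skeletal muscle genes Cacna1s and Cacng1, Cacna1h and Cacna2d4. Closest under the line were Cacna2d4 at 6.47 and Cacna1h at 6.44, and closest over it was Cacng6 at 6.72. Cacng6 is the gene that drops out if the 99th percentile of the receptors (7.50) is used. A value under the line does not show that a gene is silent.

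**Figure D1:**
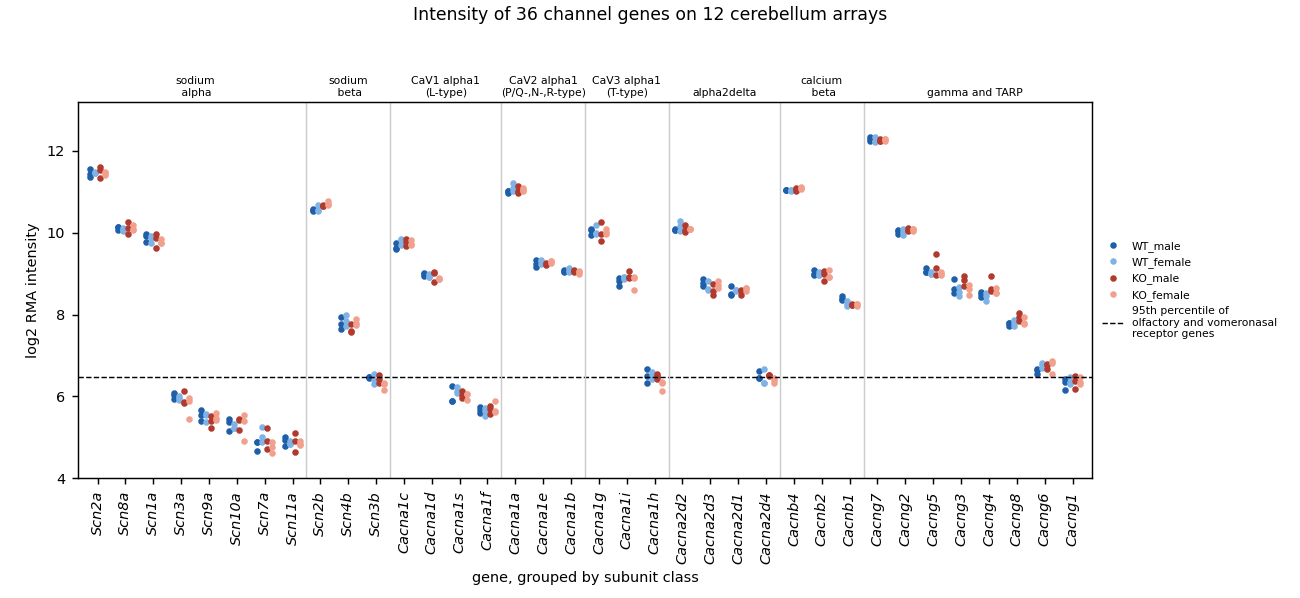
Log2 RMA intensity of each of the 36 channel genes on the 12 arrays (1 point per array, coloured by group), with genes grouped by subunit class and ordered by brightness within it. The dashed line is the 95th percentile of the olfactory and vomeronasal receptor genes, 6.47; 25 genes have a mean above it, and within a gene the 4 groups lie close together.

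Whether the genes above the background had more CG pairs before their starts depended on the window taken. With the window of most pairs per gene, the median was 19.5 in the 22 such genes with a window, 4.5 in the 6 not above it (range 3 to 9), 10.5 in all 28 and 6 over 27025 mouse genes. With the window of fewest pairs, a choice added after seeing the data, these medians were 5.5, 4.5, 5 and 5. All 8 channel genes with several windows are above the background, so the choice acts on that group alone. The values that follow are for the windows of most pairs. The median G and C content was 64.2% above the background and 51.4% not above it, beside 52.8% over all genes. Cacna1d with 50 CG pairs and Cacna1c with 48 had the most, but each had another window with 2, whereas Cacng8 with 0, Scn2b with 1 and Scn1a with 4 had few and were still above the background. The TATA box letters TATAAA, on either strand, were found in 1 of the 28 windows (3.57%, Scn2a) and in 12.5% of all windows. The GC box letters GGGCGG, on either strand, were in 14 windows (50%) and in 34.4% of all.

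**Figure D2:**
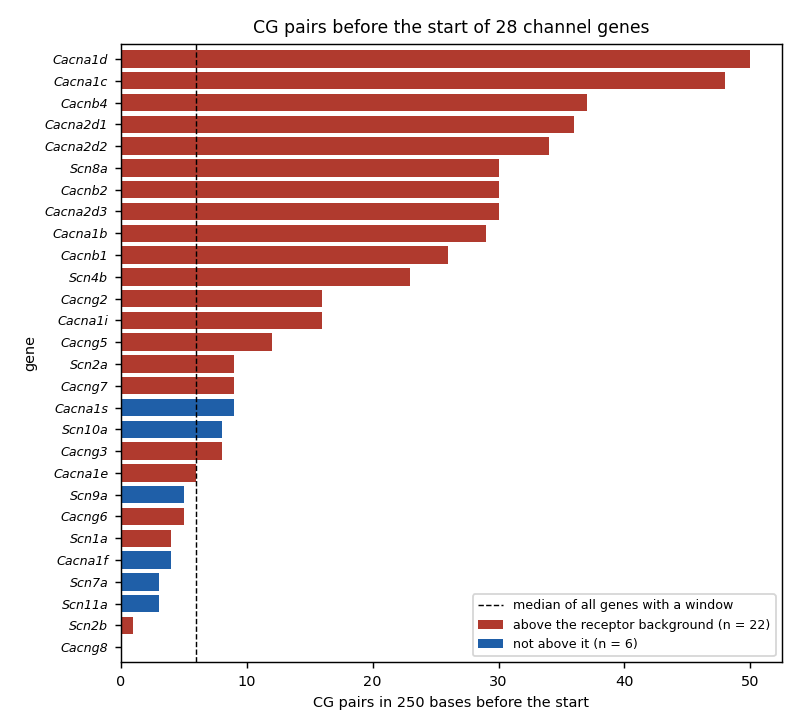
Number of CG pairs in the 250 bases before the start of the 28 channel genes with a window, taking the window of most pairs where a gene has several (red, mean intensity above the receptor background; blue, not above it). The dashed line is the median of all mouse genes with a window, 6; the blue bars end at 9 pairs or fewer, the red bars reach 50, all 8 genes with several windows are red, and the empty position at the bottom is Cacng8 with 0.

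The genotype and tissue labels were checked on Ciz1 itself and on cell markers. No check of the sex labels is given here. Ciz1 ranged from 8.70 to 8.90 in the wild-type arrays and from 6.82 to 7.31 in the knockout arrays, and fell by 1.64 on the log2 scale (SE 0.07; limma adjusted p = 1.42e-06). Ciz1 still lay above the background line of 6.47 on every knockout array, so lying over the line does not by itself show an intact gene. The mean of 11 granule cell markers lay between 10.79 and 10.94 on every array, and that of 8 Purkinje cell markers between 10.41 and 10.66. The list means of 4 forebrain and 8 skeletal muscle markers stayed under the background line (5.46 to 5.75 and 5.96 to 6.13). Some single markers had means above it, the forebrain gene Neurod6 (6.58) and the muscle genes Acta1 (7.32), Tnnt3 (7.04) and Tnni2 (6.69). Markers of some other cell types had lower values in the knockout. All 11 oligodendrocyte markers were lower in the knockout over both sexes (median -0.28), with list means of 9.03 to 9.21 in wild type, 8.78 to 9.15 in KO_male and 8.70 to 8.78 in KO_female, and Opalin passed limma's adjusted threshold. All 15 choroid plexus markers were lower (median -0.26), none past the adjusted threshold, with list means of 6.80 to 7.91 in WT_male, 6.55 to 7.78 in WT_female, 6.52 to 7.29 in KO_male and 6.38 to 7.50 in KO_female. Of 9 astroglia markers 6 were lower (median -0.0810) and none passed that threshold, with list means of 9.84 to 9.85 in WT_male, 9.75 to 9.79 in WT_female, 9.72 to 9.81 in KO_male and 9.71 to 9.77 in KO_female. Over both sexes 9.26% of all genes had an unadjusted limma p under 0.05. Of the markers, 11 of the 11 oligodendrocyte, 2 of the 15 choroid plexus and 3 of the 9 astroglia ones did. The 3 KO_female arrays also stood apart on the first principal component of all genes (10.72 to 16.01 against -12.18 to 3.54). The part of these shifts in the channel values was not tested beyond a fit with the choroid plexus level as a covariate, in which no channel gene passed either. In whole tissue, fewer cells of a type and less RNA per cell cannot be told apart.

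Sodium and calcium channel expression differed little between Ciz1-/- and wild-type cerebellum. Over both sexes no channel gene passed limma's adjusted threshold of 0.05, against 0.0225% of all genes, and 2 of the 36 (5.56%), Scn2b and Cacng4, had an unadjusted p under 0.05, a share below the 9.26% of all genes. The median difference of the 36 was -0.0081, beside -0.0007 over all genes, with 16 higher and 20 lower in the knockout. For 31 of them (86.1%, against 70.4% of all genes) the whole 95% interval of the difference lay within 0.25 log2 units of 0, that is, within a 1.19-fold change either way. For all 36 it lay within 0.5, against 97.2% of all genes. The 5 with an interval reaching beyond 0.25 were Cacng3, Cacng4, Cacna1h, Scn3a and Scn7a, and the last 3 are not above the background. No channel gene separated the 6 knockout arrays from the 6 wild-type arrays, as 0.55% of all genes did.

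**Figure D3:**
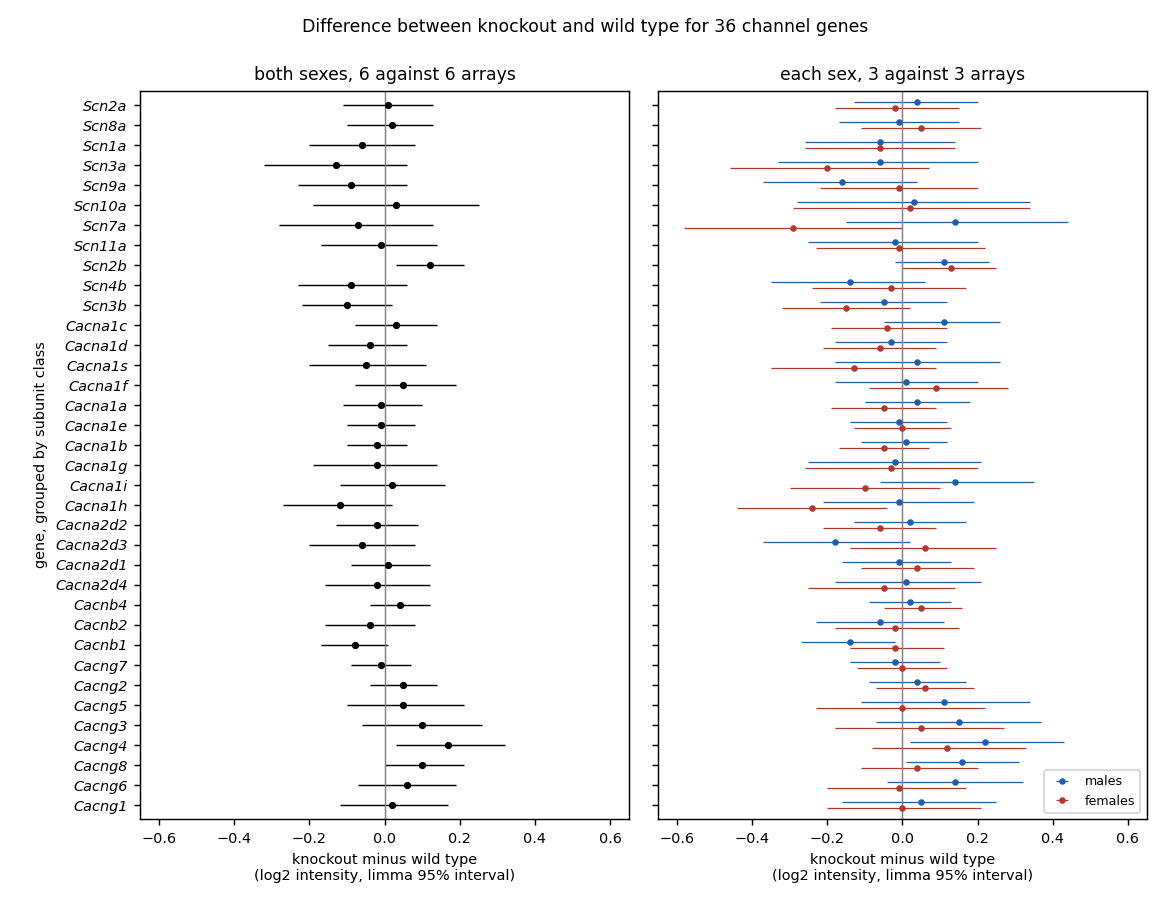
Knockout minus wild type for the 36 channel genes in log2 intensity (point) with the limma 95% interval (bar), over both sexes on the left (6 against 6 arrays) and in males (blue) and females (red) on the right (3 against 3 arrays each). On the left 31 intervals lie within 0.25 of 0, and those of Scn2b and Cacng4 do not reach 0.

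Among the sodium channel pores, Scn8a encodes NaV1.6, which carries the resurgent current of Purkinje cells. It measured 10.14, 10.14 and 10.07 in WT_male, 10.11, 10.06 and 10.03 in WT_female, 10.25, 9.97 and 10.11 in KO_male and 10.08, 10.07 and 10.20 in KO_female. The KO_male arrays held both the highest and the lowest value, and the groups overlapped. The difference over both sexes was 0.02 (SE 0.05; 95% interval -0.10 to 0.13; limma adjusted p = 0.946).

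Scn1a encodes NaV1.1, the main sodium channel of many inhibitory neurons. It measured 9.98, 9.91 and 9.77 in WT_male, 9.86, 9.74 and 9.91 in WT_female, 9.98, 9.62 and 9.88 in KO_male and 9.84, 9.75 and 9.74 in KO_female. Values overlapped in both sexes, with the lowest in KO_male 2, and the difference was -0.06 (SE 0.07; interval -0.20 to 0.08; limma adjusted p = 0.815). Without KO_male 2 it was -0.01, without KO_male 1 -0.10 and without KO_male 3 -0.07. Scn2a, which encodes NaV1.2, the pore of unmyelinated axons, ranged from 11.33 to 11.60 and differed by 0.01 (SE 0.05; interval -0.11 to 0.13). The remaining 5 alpha genes, none above the background, ranged from 5.44 to 6.13 for Scn3a, 5.22 to 5.68 for Scn9a, 4.91 to 5.55 for Scn10a, 4.65 to 5.11 for Scn11a and 4.63 to 5.25 for Scn7a. Their differences over both sexes lay between -0.13 for Scn3a and 0.03 for Scn10a.

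The beta subunit Scn2b, which binds alpha subunits through a disulphide bond, had the smallest p of all 36 genes. It measured 10.56, 10.53 and 10.58 in WT_male, 10.67, 10.53 and 10.55 in WT_female, 10.67, 10.65 and 10.66 in KO_male and 10.69, 10.68 and 10.77 in KO_female. Within each sex every knockout array lay above every wild-type array, but WT_female 1 was as high as the KO_male arrays. The mean was 10.57 ± 0.05 in wild type and 10.69 ± 0.04 in knockout (SD, n = 6 each), a difference of 0.12 (SE 0.04; interval 0.03 to 0.21), or 1.09-fold. Its limma adjusted p was 0.462, so the difference did not pass. The difference was 0.11 in males and 0.13 in females.

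Scn4b, whose protein supplies the blocking tail of resurgent current, is the gene next to Scn2b on chromosome 9, with no protein-coding gene between them in GRCm38.p6. It measured 7.78, 7.65 and 7.94 in WT_male, 7.85, 7.71 and 7.98 in WT_female, 7.58, 7.77 and 7.59 in KO_male and 7.74, 7.80 and 7.90 in KO_female. KO_male 1 and KO_male 3 were the lowest, and the difference was -0.09 (SE 0.07; interval -0.23 to 0.06; limma adjusted p = 0.709). Its value thus lay on the other side of 0 from that of its neighbour. The third beta gene, Scn3b, ranged from 6.15 to 6.54 and differed by -0.10 (SE 0.06; interval -0.22 to 0.02).

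**Figure D4:**
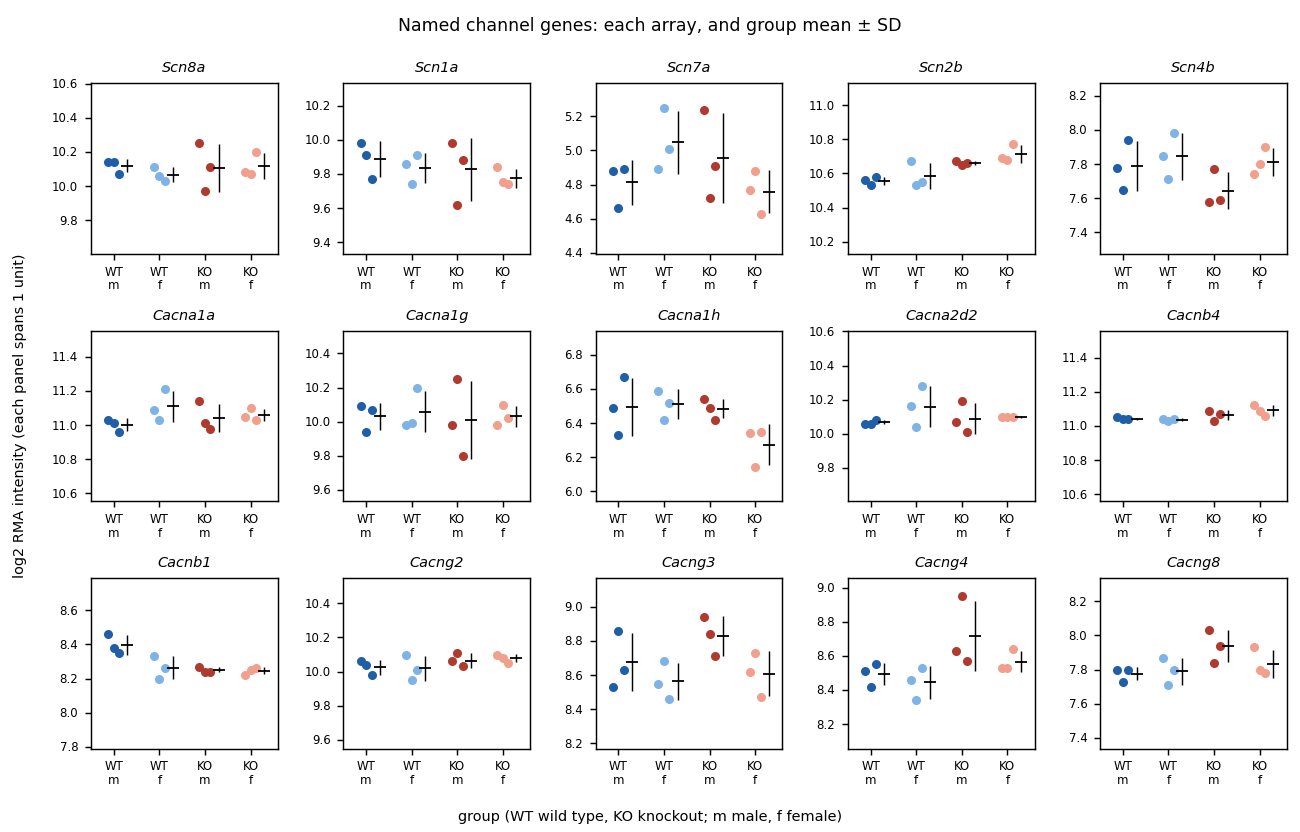
Log2 RMA intensity on each array (points) for 15 named channel genes, with the group mean and SD beside the points (bars; 3 arrays per group; WT, wild type; KO, knockout; m, male; f, female). Each panel spans 1 log2 unit; Scn2b lies higher in knockout within each sex by 0.11 and 0.13, and Cacng4 shows one KO_male array at 8.95.

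Of the CaV2 pores, Cacna1a encodes CaV2.1, the P/Q-type channel that carries most Purkinje cell calcium current. It measured 11.03, 11.01 and 10.96 in WT_male, 11.09, 11.03 and 11.21 in WT_female, 11.14, 11.01 and 10.98 in KO_male and 11.05, 11.10 and 11.03 in KO_female. The groups overlapped, with WT_female 3 the highest. The difference was -0.01 (SE 0.05; interval -0.11 to 0.10; limma adjusted p = 0.985), so a change of more than about 0.11 in either direction lies outside the interval. Cacna1b, the N-type pore, measured at most 9.13 and differed by -0.02 (SE 0.04), and Cacna1e, the R-type pore, ranged from 9.17 to 9.33 and differed by -0.01 (SE 0.04).

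Cacna1g encodes CaV3.1, the T-type channel of Purkinje and deep nuclear neurons. It measured 10.09, 9.94 and 10.07 in WT_male, 9.98, 9.99 and 10.20 in WT_female, 9.98, 10.25 and 9.80 in KO_male and 9.98, 10.10 and 10.02 in KO_female. KO_male 2 was the highest and KO_male 3 the lowest of the 12 arrays. The difference was -0.02 (SE 0.07; interval -0.19 to 0.14; limma adjusted p = 0.952), and it was -0.08 without KO_male 2 and 0.03 without KO_male 3. Cacna1i, CaV3.3, ranged from 8.59 to 9.07; its difference was 0.02 over both sexes, 0.14 in males and -0.10 in females, and the difference between the sexes did not pass (interaction -0.24, SE 0.13, limma adjusted p = 0.998).

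Cacna1h, CaV3.2, lay at the background line. It measured 6.49, 6.33 and 6.67 in WT_male, 6.59, 6.42 and 6.52 in WT_female, 6.54, 6.49 and 6.42 in KO_male and 6.34, 6.14 and 6.35 in KO_female. In females every knockout array was under every wild-type array, and in males the groups overlapped. The female difference was -0.24 (SE 0.09; interval -0.44 to -0.04), with a limma adjusted p of 0.531. The male difference was -0.01 (SE 0.09), and the interaction of -0.22 (SE 0.13) had a limma adjusted p of 0.998.

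Of the L-type pores, Cacna1c (CaV1.2) ranged from 9.60 to 9.85 and differed by 0.03 (SE 0.05; interval -0.08 to 0.14). Cacna1d (CaV1.3) ranged from 8.79 to 9.04 and differed by -0.04 (SE 0.05; interval -0.15 to 0.06). Both are neuronal channels that couple activity to gene expression. Cacna1s, at 5.88 to 6.26, and Cacna1f, at 5.53 to 5.88, were not above the background, and differed by -0.05 and 0.05.

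The alpha2delta subunit Cacna2d2, the gene of ducky mice and strongly expressed by Purkinje cells, measured 10.06, 10.06 and 10.08 in WT_male, 10.16, 10.04 and 10.28 in WT_female, 10.07, 10.19 and 10.01 in KO_male and 10.10, 10.10 and 10.10 in KO_female. The KO_female arrays were nearly identical, and WT_female 3 was the highest. The difference was -0.02 (SE 0.05; interval -0.13 to 0.09; limma adjusted p = 0.938). Cacna2d1, which ranged from 8.48 to 8.70, differed by 0.01 (SE 0.05), and Cacna2d3, from 8.48 to 8.87, by -0.06 (SE 0.06). Cacna2d4 ranged from 6.33 to 6.67 and differed by -0.02 (SE 0.06).

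Cacnb4, the beta subunit partnered with CaV2.1 in cerebellum, varied least of all 36 genes, with a within-group SD of 0.0234. It measured 11.05, 11.04 and 11.04 in WT_male, 11.04, 11.03 and 11.04 in WT_female, 11.09, 11.03 and 11.07 in KO_male and 11.12, 11.09 and 11.06 in KO_female. In females all knockout arrays were above all wild-type arrays, by little, and in males they overlapped. The difference was 0.04 (SE 0.04; interval -0.04 to 0.12; limma adjusted p = 0.764). The SE is limma's, drawn towards the spread of all genes, and is larger than this gene's own within-group SD. A second, dimmer probe set row of this gene gave 0.02 over both sexes and -0.04 in females, where the row used gave 0.05.

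Cacnb1, the beta subunit of skeletal muscle that is also made in brain, measured 8.46, 8.38 and 8.35 in WT_male, 8.33, 8.20 and 8.26 in WT_female, 8.27, 8.24 and 8.24 in KO_male and 8.22, 8.25 and 8.26 in KO_female. The WT_male arrays were above all 9 others. In males the difference was -0.14 (SE 0.06; interval -0.27 to -0.02; limma adjusted p = 0.874), in females -0.02 (SE 0.06) and over both sexes -0.08 (SE 0.04). Cacnb2 ranged from 8.82 to 9.10 and differed by -0.04 (SE 0.05), and by -0.06 in its second row.

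In the gamma genes, 7 of 8 differences over both sexes were above 0, with a median of 0.0581 beside -0.0007 over all genes, and none passed the adjusted threshold. In males the median was 0.1259, with 7 of 8 above 0, and in females 0.0230, with 6 of 8. The class was chosen by name, but its count was read from the same arrays and carries no test.

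Cacng4, a TARP that binds AMPA receptors, measured 8.51, 8.42 and 8.55 in WT_male, 8.46, 8.34 and 8.53 in WT_female, 8.63, 8.95 and 8.57 in KO_male and 8.53, 8.53 and 8.64 in KO_female. Within each sex the knockout arrays lay above the wild-type arrays, in females by less than the rounding of the nearest values, and KO_male 2 stood well above the rest. The mean was 8.47 ± 0.08 in wild type and 8.64 ± 0.16 in knockout (SD, n = 6 each), and the difference was 0.17 (SE 0.07; interval 0.03 to 0.32), or 1.13-fold. Its limma adjusted p was 0.492. Without KO_male 2 the difference was 0.11 (SE 0.05; limma adjusted p = 0.554). In males it was 0.22 (SE 0.09; limma adjusted p = 0.887) with that array and 0.11 (SE 0.08; limma adjusted p = 0.922) without it. Over both sexes the difference was 0.19 without KO_male 1 and 0.21 without KO_male 3, and in males 0.27 and 0.30.

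Cacng8, another TARP, measured 7.80, 7.73 and 7.80 in WT_male, 7.87, 7.71 and 7.80 in WT_female, 8.03, 7.84 and 7.94 in KO_male and 7.93, 7.80 and 7.78 in KO_female. The male groups were separate and the female groups overlapped. The male difference was 0.16 (SE 0.07; interval 0.01 to 0.31; limma adjusted p = 0.894). It was 0.12 without KO_male 1, 0.21 without KO_male 2 and 0.16 without KO_male 3. Over both sexes it was 0.10 (SE 0.05; limma adjusted p = 0.551).

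Cacng2, stargazin, which carries AMPA receptors to granule cell synapses, measured 10.06, 10.04 and 9.98 in WT_male, 10.10, 9.95 and 10.01 in WT_female, 10.06, 10.11 and 10.03 in KO_male and 10.10, 10.08 and 10.05 in KO_female. The groups overlapped in both sexes. The difference was 0.05 (SE 0.04; interval -0.04 to 0.14; limma adjusted p = 0.733), and 0.09 in a second row of the gene.

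Of the other gamma genes, Cacng3, a forebrain-type TARP, differed by 0.10 (SE 0.07; interval -0.06 to 0.26). Cacng5, a TARP known from Bergmann glia, differed by 0.05 (SE 0.07), and by -0.02 without KO_male 2, which measured 9.47 against 8.97 to 9.15 on the other 11 arrays. Without KO_male 1 the Cacng5 difference was 0.11, and without KO_male 3 it was 0.07. Cacng7, which ranged from 12.22 to 12.34, differed by -0.01 (SE 0.04), Cacng6 by 0.06 (SE 0.06) and Cacng1, a muscle subunit, by 0.02 (SE 0.07). Cacng1, Cacng4 and Cacng5 are consecutive protein-coding genes on chromosome 11, and Cacng7, Cacng8 and Cacng6 on chromosome 7. In the first run the values over both sexes were 0.02, 0.17 and 0.05, and in the second -0.01, 0.10 and 0.06.

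Within a sex the comparisons rested on 3 against 3 arrays and no channel gene passed limma's adjusted threshold, in males (0.0225% of all genes did) or in females (0.0225%). In males 3 of 36 genes (8.33%) had an unadjusted p under 0.05, against 5.42% of all genes, namely Cacnb1, Cacng4 and Cacng8. In females 2 did (5.56%, against 8.49%), namely Cacna1h and Scn2b. The groups were separate in males for 5 channel genes (13.9%, against 10.3% of all genes). Cacng4, Cacng6, Cacng8 and Scn2b were higher in the knockout (4.66% of all genes were separate in this direction) and Cacnb1 lower (5.64%). In females they were separate for 7 (19.4%, against 14.9%). Cacnb4, Cacng4 and Scn2b were higher (7.46% of all genes) and Cacna1d, Cacna1s, Cacna1h and Scn7a lower (7.41%). Scn2b and Cacng4 were separate in the same direction in both sexes, 5.56% of the channel genes against 1.36% of all genes, a count of 2 genes. The interval lay within 0.25 of 0 for 18 of the 36 genes in males (50%, against 43.2%) and for 22 in females (61.1%, against 39.4%).

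The knockout difference was not shown to differ between the sexes for any channel gene. No gene of the whole table passed the interaction test (0% of 22180 genes), and 1 channel gene (2.78%, against 4.82% of all genes) had an unadjusted p under 0.05. That gene was Scn7a, which encodes a sodium-sensing channel of glia and lay under the background. It measured 4.88, 4.66 and 4.89 in WT_male, 4.89, 5.25 and 5.01 in WT_female, 5.24, 4.72 and 4.91 in KO_male and 4.77, 4.88 and 4.63 in KO_female. The female groups were separate, with the knockout lower, and the male groups overlapped. The knockout difference was 0.14 (SE 0.13) in males and -0.29 (SE 0.13) in females, an interaction of -0.43 (SE 0.19; interval -0.85 to -0.02; limma adjusted p = 0.998). Only 7 of the 36 interaction intervals lay within 0.25 of 0 (19.4%, against 13.8%). For most genes the interval thus included a difference between the sexes of more than 0.25.

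Differences between females and males, averaged over genotype, were also small. No channel gene passed limma's adjusted threshold (0.0361% of all genes did), and 1 (2.78%, against 7.93%) had an unadjusted p under 0.05. That gene was Cacng3, which measured 8.53, 8.86 and 8.63 in WT_male, 8.55, 8.68 and 8.46 in WT_female, 8.94, 8.84 and 8.71 in KO_male and 8.62, 8.73 and 8.47 in KO_female. Males were higher on average, with the KO_male arrays highest as a group. The sexes overlapped for this and every other channel gene, and were separate for 0.469% of all genes. The difference, females minus males, was -0.17 (SE 0.07; interval -0.32 to -0.01; limma adjusted p = 0.618). For 31 of the 36 genes (86.1%, against 71.5% of all genes) the interval lay within 0.25 of 0. Cacna1f, an X-linked pore under the background, differed by 0.00 between the sexes (SE 0.06; interval -0.13 to 0.13).

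The channel genes also varied between mice of the same group. The median within-group SD was 0.078 for the 25 above the background and 0.122 for the 11 not above it, beside 0.088 and 0.155 for all genes. After Cacnb4 the tightest were Cacna1b at 0.0364 and Cacng7 at 0.0412, and above the background the widest were Cacna1g at 0.138, Cacng5 at 0.135 and Cacng3 at 0.133. KO_male 1 held the highest or lowest value of 10 of the 25 genes above the background (40%, against 14.9% of all genes above it). It was highest for Scn2a, Scn8a, Cacna1d, Cacna1i, Cacng3 and Cacng8 and lowest for Scn4b, Cacna2d3, Cacnb2 and Cacng5. KO_male 2 held 8 (32%, against 18.6%), the highest Cacna1g, Cacng2, Cacng4 and Cacng5 and the lowest Scn1a, Scn2a, Scn8a and Cacna2d1. WT_female 2 held 7 (28%, against 11.8%), all of them lowest values: Scn2b, Cacnb1, Cacnb4, Cacng2, Cacng4, Cacng7 and Cacng8.

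KO_male 2 also stood apart in cell markers. Its Purkinje marker mean was 10.66 against 10.41 to 10.56 on the other 11 arrays, and it was the highest array for 5 of the 8 markers. Its granule cell mean was 10.79 against 10.84 to 10.94, and it was the lowest for 3 of the 11. Its microglia mean, over 5 markers, was 7.92 and the highest of the 12, as was its value for 3 of them. Its oligodendrocyte mean was 8.78, the lowest of the KO_male arrays, and it was the lowest of the 12 for 4 of the 11 markers. Of the 9 astroglia markers it held 4 highest and 3 lowest values, with a mean of 9.81. Other arrays were extreme for other lists. KO_male 3 had the lowest Purkinje mean (10.41) and KO_male 1 the highest granule cell mean (10.94). KO_female 2 had the highest mean of 9 vascular markers (8.25) and WT_male 1 the highest choroid plexus mean (7.91). The part of these markers in the channel values of KO_male 2 or of any other array was not tested.

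**Figure D5:**
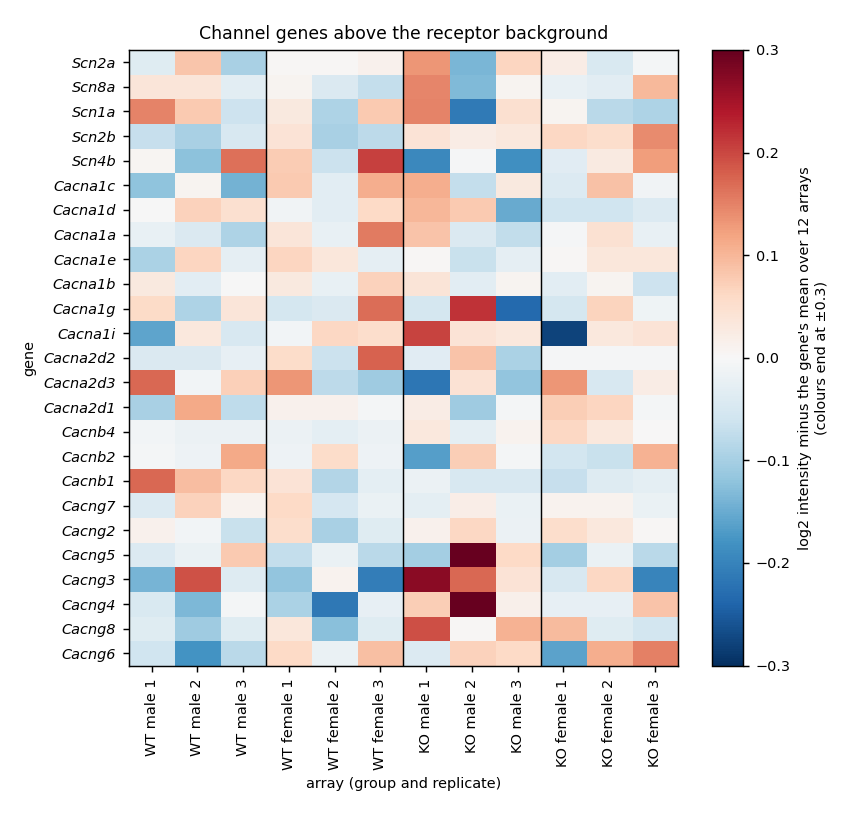
Deviation of each array from the gene's mean over the 12 arrays, in log2 intensity (colour, ending at 0.3 either way), for the 25 channel genes above the receptor background (rows, by subunit class) on the 12 arrays (columns, by group). The strongest colours are single cells, such as Cacng4 and Cacng5 in KO_male 2, while few rows change colour as a whole between wild type and knockout.

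Partners of the channels gave the same picture of small values, and none passed limma's adjusted threshold over both sexes. Of 11 sodium channel partners, which anchor, modify or inactivate the pore, 6 were higher and 5 lower in the knockout (median 0.003), and 0 had an unadjusted p under 0.05, against 9.26% of all genes. The smallest p-values belonged to Nedd4l, a ubiquitin ligase (0.06), Ank3, the ankyrin of the axon initial segment (-0.06), and Nfasc, an adhesion molecule of that segment (0.05). Of 4 genes of the sodium leak channel, the pore Nalcn differed by -0.04 and its subunits Unc79 and Unc80 by 0.08 and -0.05. Of 14 calcium channel partners, 9 were higher and 5 lower (median 0.0273), and 1 had an unadjusted p under 0.05 (all genes, 9.26%): Cachd1, a relative of alpha2delta, at -0.11 (SE 0.05; limma adjusted p = 0.538). Rrad, a small GTPase that inhibits calcium channels, differed by 0.11, and Cabp2, a calcium sensor, by 0.14. Of 15 genes of calcium handling, 6 were higher and 9 lower (median -0.0056), and 2 had an unadjusted p under 0.05 (all genes, 9.26%). These were the calcium pump Atp2b4 at -0.09 (limma adjusted p = 0.517) and the sodium-calcium exchanger Slc8a3 at 0.15. The calcium buffer Calb2 differed by 0.10.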

How the data were processed

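The authors deposited intensity values made by RMA over core exons in Affymetrix Expression Console (per the labels), on a linear scale with array medians of 96.5 to 98.7. Transcriptome Analysis Console 3.0 is named in the submitters' processing notes; the authors' test and genome build are not named there or in the labels used here. The number of arrays limits the precision.

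Of 41345 rows, 23521 carried 1 gene symbol in GEO's platform annotation, 1814 several and 16010 none. The brightest single-symbol row stood for each of 22180 genes, 1082 of which had several. A row shared by Scn9a and another gene was not used. Log2 was taken with no pseudocount, further normalization or filter. In limma 3.58.1 (R 4.3.3), means of the 4 groups were fitted over all 12 arrays, with 5 contrasts, eBayes, two-sided tests and Benjamini-Hochberg adjustment over 22180 genes at 0.05. SEs and intervals of differences use limma's moderated spread, in which each gene's spread is drawn towards that of all genes. The fit was tested on simulated data.

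The channel genes, partner lists and markers (16 lists, 161 entries, 17 unmatched) were chosen with earlier results of these data known. Values on each array are given for 8 cerebellar or mutant channel genes set by name, for up to 6 genes per contrast with the smallest unadjusted p under 0.05, and for any gene past the adjusted threshold. Up to 3 partners per list were named by smallest p. Other genes are given by range, and single values of arrays that stood apart were chosen after they were seen. All 36 genes matched RefSeq (GRCm38.p6) by gene ID; sequences and gene order are from it. Replicate numbers follow record order. Alternatives were another normalization, an added constant, a brightness filter, an intensity trend, all rows averaged, a choroid plexus covariate and each array left out.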

Additional observations from a re-analysis of the deposited data

How the results depend on the processing

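No channel gene passed limma's adjusted threshold in any of the 5 contrasts under any of the 18 alternatives, 12 of which left out 1 array. At an unadjusted p under 0.05, counted after seeing the data, the number ranged from 2 to 4 over both sexes, 1 to 5 in males, 0 to 3 in females, 0 to 2 for the interaction and 0 to 3 for sex. The lowest adjusted p of any named gene was 0.211, for Scn2b over both sexes.

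The median interaction of the channel genes was -0.0372, and -0.0026 with only genes above the median brightness, which keeps 24 of the 36 and drops Cacna1h and Scn7a. Leaving out single arrays moved the median difference from -0.0079 to 0.0293 in males, -0.0282 to 0.0033 in females, -0.077 to -0.0008 for the interaction, -0.021 to 0.0037 for sex and -0.0155 to 0.0096 over both sexes.

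The sign was not settled for 4 named genes near 0 over both sexes. Cacna1a was 0.0013 after quantile normalization and -0.029 to 0.0196 without single arrays. With the choroid plexus level as a covariate Cacna1g was 0.0186 and Scn8a -0.0008. Without single arrays Cacna1g ranged from -0.085 to 0.0276, Scn8a from -0.0158 to 0.0542 and Cacna2d2 from -0.0504 to 0.0099. The cause was not tested. No paired analysis was possible because the replicate numbers only follow the order of the records.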
